A study of Caenorhabditis elegans with 6 samples.

Results

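The 9 genes hsp-6, hsp-60, atfs-1, ubl-5, dve-1, lin-65, lonp-1, clpp-1 and haf-1 belong to the mitochondrial stress response of Caenorhabditis elegans and were followed in whole worms grown with or without 5-fluoro-2′-deoxyuridine (FUDR). They were picked by symbol, with WBcel235 gene names, from the 46926 genes of the deposited count table, and all 9 were found and passed the filter on low counts. The tested worms were wild type, labelled L4, the last larval stage, and kept on 50 µM FUDR (3 libraries). The worms they were set against were wild type, of the same stage, untreated, and kept on plates of the Escherichia coli strain OP50 (3 libraries). FUDR is a nucleoside analogue that blocks thymidylate synthase and is widely used to keep worms from producing progeny. When in development the exposure began and whether replicates came from separate cultures are not given in the labels, so the p-values reflect the scatter among libraries of a group, part of which may be technical.

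The mitochondrial unfolded protein response couples protein folding inside the organelle to transcription in the nucleus. In C. elegans the bZIP factor ATFS-1 is normally imported into mitochondria and degraded there, and when import falters it reaches the nucleus and raises the transcription of mitochondrial chaperones and proteases. The ubiquitin-like protein UBL-5, the homeodomain protein DVE-1 and the chromatin protein LIN-65 act in the nucleus alongside it, and transcripts of hsp-6 and hsp-60 are the usual readouts of the response.

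With FUDR, the transcripts of both readout chaperones fell further than those of the other 7 genes. The mitochondrial HSP70 gene hsp-6 was at 0.490 times and the chaperonin gene hsp-60 at 0.401 times its OP50 level. The factor atfs-1, the chromatin gene lin-65 and the protease gene lonp-1 fell as well, while ubl-5 and the protease gene clpp-1 rose. In all, 5 of 9 genes were lower and 2 higher at an edgeR adjusted p under 0.05, where 21.04% of the 17022 genes tested were lower and 19.96% higher. The 2 that did not pass were dve-1 and haf-1. The same 7 genes had no overlap between the FUDR and OP50 libraries, 5 with FUDR below (26.73% of all genes tested) and 2 with FUDR above (28.00%). The median log2 fold change was −0.35 over the 9 genes and 0.05 over all genes tested. Levels are in CPM, counts brought to a common library size with TMM factors, and fold changes are FUDR over OP50.

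Library totals ran from 61312034 to 99234226 gene counts, and the lowest count of any of the 9 genes in any library was 228. Markers of germline, sperm, intestine, body wall muscle, neurons, hypodermis and pharynx were all detected, none of them at 0. Germline markers moved with the treatment, and 14 of 15 (93.3%) were lower and 0 higher (12 to 15 lower with a library left out). Their log2 fold changes were uneven, from −1.61 (cgh-1) to −0.27 (him-3 and htp-3), with glh-1 not called (−0.28). With library size alone 12 were lower, and him-3 (−0.037), htp-3 (−0.043) and glh-1 (−0.057) were not called. Of the 15, 12 average 100 CPM or more, a level at which 50.2% of all genes were lower and 9.06% higher. The summed level of the germline markers lay between 3448 and 4844 CPM in FUDR and between 8386 and 8850 CPM in OP50. In whole worms, fewer cells of a type and less RNA per cell cannot be told apart, and the part of the germline in the changes below was not tested. Sperm markers summed to between 538 and 592 CPM in FUDR and between 567 and 621 CPM in OP50, with 1 of 10 lower. Over all genes tested, 19.96% were higher and 21.04% lower. Of 9 intestine markers 2 were higher and 2 lower, and of 10 muscle markers 1 was higher and 0 lower. Of these, 5 intestine and 9 muscle markers average 100 CPM or more. At that level 50.2% of all genes were lower and 9.06% higher. Of 10 neuron markers 4 were higher, of 10 hypodermis markers 1 was higher and 3 lower, and of 9 pharynx markers 2 were higher. Leaving out a library changed these counts, to between 0 and 3 lower for sperm, 0 and 2 higher for intestine, 0 and 4 lower for muscle (4 without FUDR replicate 1), 1 and 4 higher for neurons (1 without OP50 replicate 2), 1 and 4 lower for hypodermis and 1 and 2 higher for pharynx. The hypodermis rise was absent without any one OP50 library. With library size alone 8 neuron, 4 intestine, 3 hypodermis and 3 sperm markers were higher, and 7 neuron markers with upper quartile scaling.

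The balance of calls depended on scaling. With TMM, 3397 genes were higher and 3582 lower, with upper quartile scaling 4975 and 2492, and with library size alone 5814 and 1931. Library size alone gave a median of 0.28 over all genes, against 0.05 with TMM, a difference that fold changes on that scale carry.

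**Figure D1:**
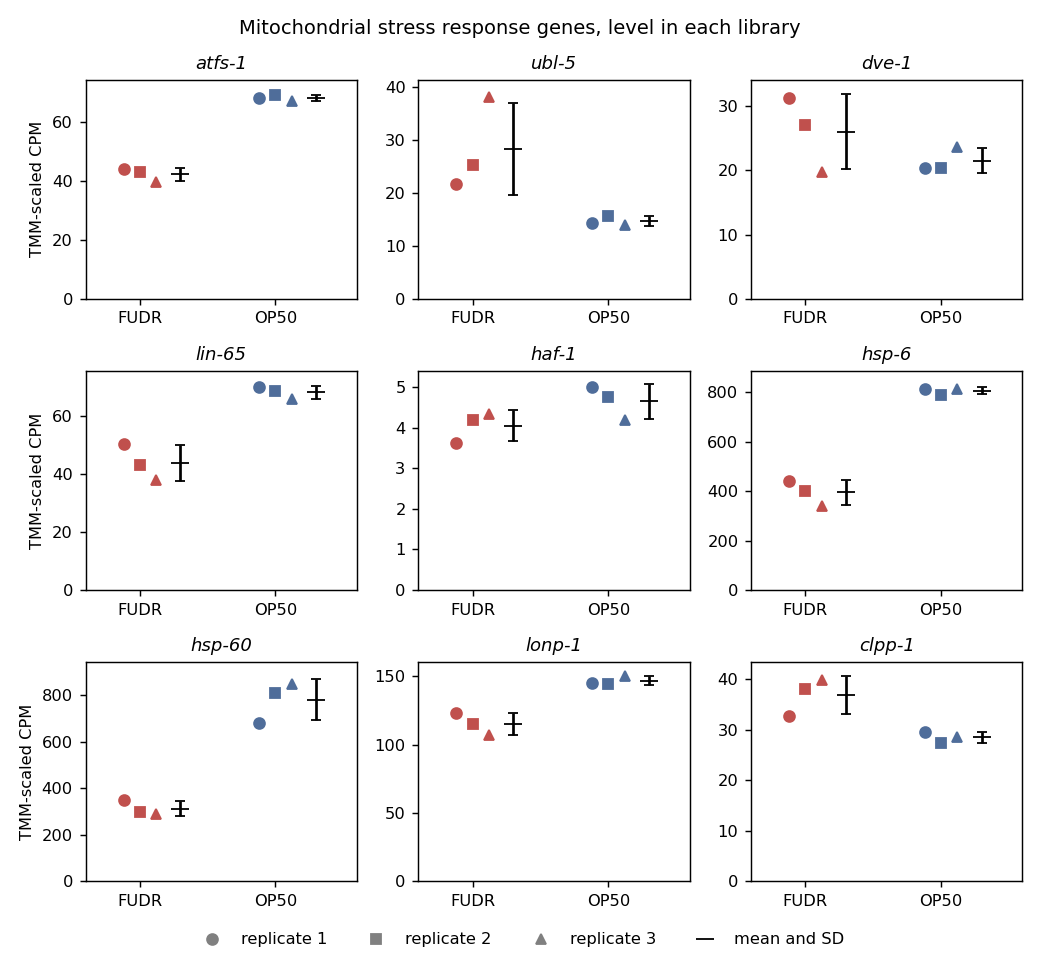
Level of each of the 9 genes in TMM-scaled CPM (vertical axes, from 0) in the 3 FUDR libraries (red) and the 3 OP50 libraries (blue), with the mean and SD beside them. The FUDR points lie below the OP50 points for atfs-1, lin-65, hsp-6, hsp-60 and lonp-1, above them for ubl-5 and clpp-1, and among them for dve-1 and haf-1.

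Among the chaperones, hsp-6 (WBGene00002010, chromosome V, 4824124 to 4826760, WBcel235, minus strand) encodes the mitochondrial HSP70 that draws proteins through the inner membrane and folds them in the matrix. Its level was 440.5, 401 and 342 CPM in the FUDR libraries and 815, 789 and 813 CPM in the OP50 libraries. The highest FUDR library was thus well under the lowest OP50 library, and the OP50 libraries lay close together. The means were 395 ± 49.8 CPM in FUDR and 806 ± 14.5 CPM in OP50 (SD, n = 3 each), a change of −1.03 ± 0.111 in log2 (SE; adjusted p = 0.000287 by edgeR). With any library left out, that value stayed between −1.12 and −0.94.

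The chaperonin gene hsp-60 (WBGene00002025, chromosome III, 1619742 to 1625803, plus strand) encodes the subunit of the matrix folding chamber. It had 350.5, 297 and 291 CPM in the FUDR libraries, against 681, 809 and 850 CPM in the OP50 libraries. Here the OP50 libraries were the more scattered, with replicate 1 lowest, yet the groups were far apart. In log2 terms hsp-60 changed by −1.32 ± 0.121 (SE; edgeR, adjusted p = 0.00017), between −1.41 and −1.26 with any library left out. Among all genes tested, the log2 fold change of hsp-60 was at percentile 0.808 and that of hsp-6 at percentile 1.98, counted from the most negative.

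The fall of hsp-60 was the larger of the pair in size, but their ratio did not part the groups. For each hsp-60 read scaled to the library there were 1.26, 1.35 and 1.18 hsp-6 reads in the FUDR libraries and 1.196, 0.976 and 0.957 in the OP50 libraries. The OP50 replicate 1 ratio lay above that of FUDR replicate 3. On the log2 scale the ratio averaged 0.33 ± 0.102 in FUDR and 0.05 ± 0.178 in OP50 (SD, n = 3 each), a difference of 0.28 that an exact two-sided permutation test gave p = 0.2, where 0.1 is the smallest p that 3 against 3 libraries allow. That difference was positive with each library left out in turn, between 0.22 and 0.38.

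ATFS-1 is the transcription factor of the response, with both a mitochondrial targeting signal and a nuclear localization signal. Its gene atfs-1 (WBGene00013878, chromosome V, 14193663 to 14197700, plus strand) had 44.1, 43.1 and 39.7 CPM in the FUDR libraries and 68.2, 69.5 and 67.3 CPM in the OP50 libraries. Both groups were tight and clearly separate. The fold change in log2 was −0.69 ± 0.0761 (SE; adjusted p = 0.000314 by edgeR). These are transcript levels, and they do not measure where the protein is, which is what its activity turns on.

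The ratio of hsp-60 to atfs-1 was 7.94, 6.88 and 7.32 in the FUDR libraries and 9.99, 11.6 and 12.6 in the OP50 libraries. The groups did not overlap, and the mean log2 ratio differed by −0.63. This ratio and those of clpp-1 to lonp-1 and ubl-5 to dve-1 were chosen after the values were seen and are given as descriptions, with no test.

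The nuclear partners of ATFS-1 did not move together. LIN-65 works with the histone methyltransferase MET-2 in the chromatin reorganization that accompanies mitochondrial stress. Its gene lin-65 (WBGene00022149, chromosome I, 1755329 to 1766400, plus strand) had 50.4, 43.3 and 38.2 CPM in the FUDR libraries, against 70.1, 68.9 and 65.9 CPM in the OP50 libraries. All FUDR libraries were below all OP50 libraries, with a change of −0.64 ± 0.105 in log2 (SE; adjusted p = 0.00182 by edgeR).

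UBL-5 is a small ubiquitin-like protein that binds DVE-1 and is itself induced by mitochondrial stress. Its gene ubl-5 (WBGene00006726, chromosome I, 5607826 to 5608841, minus strand) went the other way, with 21.5, 25.1 and 38.1 CPM in the FUDR libraries and 14.3, 15.6 and 13.9 CPM in the OP50 libraries. Every FUDR library was above every OP50 library, and FUDR replicate 3 stood well above the other two. The fold change in log2 was 0.95 ± 0.194 (SE; adjusted p = 0.00534 by edgeR). Without FUDR replicate 3 it was 0.67, still called (edgeR adjusted p = 0.000885).

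DVE-1 is a homeodomain protein that gathers in the nucleus under mitochondrial stress and binds the hsp-60 promoter. Its gene dve-1 (WBGene00022861, chromosome X, 427035 to 433812, minus strand) had 31.3, 27.1 and 19.7 CPM in the FUDR libraries and 20.4, 20.4 and 23.7 CPM in the OP50 libraries. FUDR replicate 3 was the lowest of the 6 libraries and the other FUDR libraries were the highest. The log2 fold change of 0.28 did not pass (95% interval −0.09 to 0.64, edgeR adjusted p = 0.197). Without FUDR replicate 1 it was 0.12 (edgeR adjusted p = 0.54). It was called without FUDR replicate 3 (0.44, edgeR adjusted p = 0.00834), with library size alone (0.50, adjusted p = 0.0161) and with upper quartile scaling (0.42, edgeR adjusted p = 0.0456).

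FUDR replicate 3 therefore held the highest ubl-5 and the lowest dve-1 of its group. The ratio of ubl-5 to dve-1 was 0.689, 0.928 and 1.93 in the FUDR libraries and 0.704, 0.766 and 0.587 in the OP50 libraries, so the groups overlapped. The same library had the lowest summed level of germline markers in its group (3448 CPM, against 4844 and 4352 in replicates 1 and 2) and of pharynx (428 CPM, against 1055 and 728), muscle (10852, against 17565 and 13499), intestine (5844, against 7937 and 6514) and neuron markers (420.4, against 474 and 462), and the highest of hypodermis markers (4226, against 3739 and 3556). Their part in the spread of ubl-5 and dve-1 was not tested.

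Both matrix proteases changed, in opposite directions. LONP-1 is the Lon protease, which degrades damaged matrix proteins and imported ATFS-1. Its gene lonp-1 (WBGene00016391, chromosome I, 10676922 to 10682374, minus strand) had 123, 115.2 and 107 CPM in the FUDR libraries and 145, 144 and 150.5 CPM in the OP50 libraries. The groups were separate but close, with a change of −0.35 ± 0.0836 in log2 (SE; adjusted p = 0.0101 by edgeR). The fall was not called with library size alone (−0.13, adjusted p = 0.186).

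CLPP-1 is the proteolytic subunit of the mitochondrial Clp protease, which yields the peptides that HAF-1 exports. The gene clpp-1 (WBGene00014172, chromosome II, 10300714 to 10302842, minus strand) had 32.7, 38.1 and 39.96 CPM in the FUDR libraries, against 29.5, 27.4 and 28.6 CPM in the OP50 libraries. The lowest FUDR library was just above the highest OP50 library. The fold change in log2 was 0.37 ± 0.0954 (SE; adjusted p = 0.0136 by edgeR), and the call was lost without FUDR replicate 2 (0.36, adjusted p = 0.0601) or OP50 replicate 2 (0.34, adjusted p = 0.0645).

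The ratio of clpp-1 to lonp-1 reads was 0.266, 0.330 and 0.373 in the FUDR libraries and 0.203, 0.190 and 0.190 in the OP50 libraries. Since clpp-1 was higher and lonp-1 lower in every FUDR library, this ratio had to part the groups. On the log2 scale it differed by 0.72, and no scaling factor enters it.

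HAF-1 is an ATP-binding cassette transporter of the inner membrane that exports peptides from the matrix. Its gene haf-1 (WBGene00001811, chromosome IV, 17376427 to 17379310, plus strand) had 3.63, 4.20 and 4.35 CPM in the FUDR libraries and 5.01, 4.76 and 4.19 CPM in the OP50 libraries. The groups overlapped. Its log2 fold change of −0.20 did not pass (95% interval −0.52 to 0.12, edgeR adjusted p = 0.293) and turned to 0.033 with library size alone. Annotated exons of haf-1 share 64 exon bases (3.04% of its exon length) with C30H6.9 on the opposite strand, which fell (−0.49), and reads there cannot be assigned with certainty because the strand setting of the counting is not given in the sources used here. The other 8 genes share no exon base with another annotated gene, although mdt-22 and 3 short noncoding genes with no counts lie within clpp-1.

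**Figure D2:**
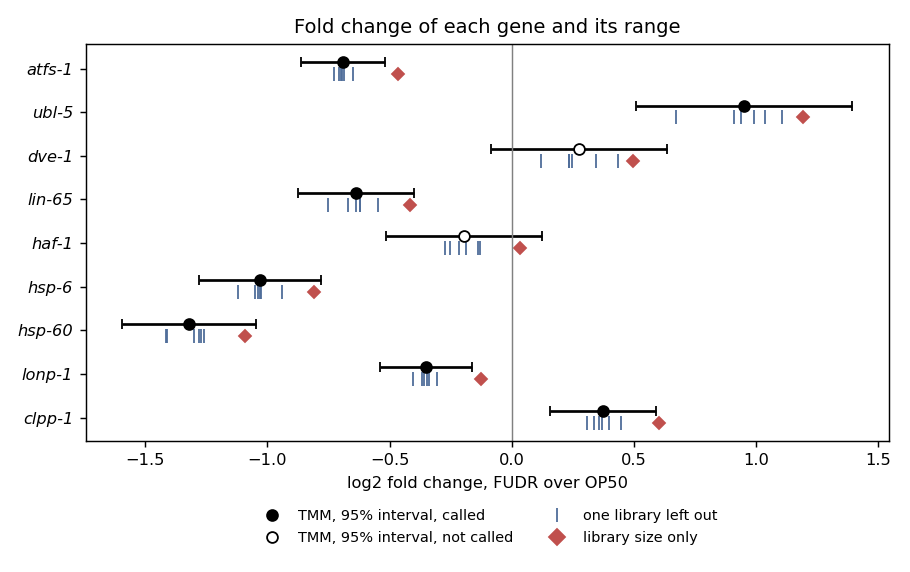
Log2 fold change of each gene, FUDR over OP50 (horizontal axis), with its 95% interval (filled where the edgeR adjusted p was under 0.05), the values with each library left out (blue ticks) and the value with library size alone (red diamonds). The red diamonds sit to the right of the TMM values for all 9 genes, and haf-1 is the gene whose diamond (0.033) lies on the other side of 0 from its TMM value (−0.20).

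Per kilobase of exon, the chaperone transcripts were more abundant than the rest in both groups, by less in FUDR, and the order below them differed between the groups. As CPM per kilobase (RPKM), hsp-6 was at 160 ± 20.2 and hsp-60 at 147 ± 15.5 in FUDR, and the corresponding OP50 levels were 328 ± 5.88 and 368 ± 41.4 (SD, n = 3 each), with overlapping ranges between these genes in both groups. In FUDR they were followed by ubl-5 (86.4), clpp-1 (46.7), lonp-1 (37.6), atfs-1 (21.97), lin-65 (16.8), dve-1 (7.84) and haf-1 (1.93 RPKM), and no neighbours in that stretch overlapped in range.

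In OP50 the chaperones were followed by lonp-1 (48.0), ubl-5 (44.7), clpp-1 (36.0), atfs-1 (35.5), lin-65 (26.1), dve-1 (6.48) and haf-1 (2.21 RPKM). There, lonp-1 overlapped with ubl-5 and clpp-1 with atfs-1, so that their order is not beyond the spread. The gene lonp-1 thus ranked above ubl-5 and clpp-1 in mean level in OP50 and below both in FUDR.

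Calls varied with expression level across the whole table, in which the 9 genes average between 4.36 and 600.1 CPM. Under 1 CPM, where no member lies, 2.45% of 3263 genes were lower and 20.5% higher, and between 1 and 10 CPM, the level of haf-1, 6.80% of 5237 were lower and 27.7% higher. Of 1931 genes averaging 100 CPM or more, 50.2% were lower and 9.06% higher in FUDR, with a median log2 fold change of −0.31. The 3 members at that level, hsp-6, hsp-60 and lonp-1, were all lower. Among the 6591 genes between 10 and 100 CPM, 33.0% were lower and 16.8% higher, and there atfs-1 and lin-65 fell while ubl-5 and clpp-1 rose. A lower transcript was thus common among abundant genes. The size of the hsp-6 and hsp-60 changes, not their direction, set them towards the edge of the distribution over all genes tested. Their rank among genes of like abundance was not computed.

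**Figure D3:**
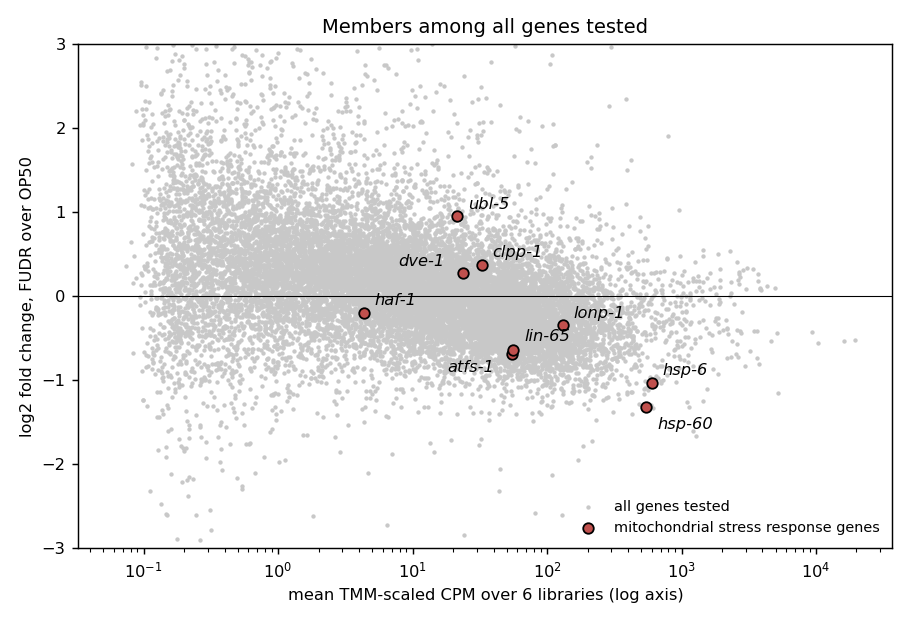
Mean level over the 6 libraries (horizontal log axis, TMM-scaled CPM) against the log2 fold change, FUDR over OP50 (vertical axis), for all genes tested (grey, 245 of them outside the axis limits of 3 either way) and the 9 members (red). Among the members, the points for hsp-60 (−1.32) and hsp-6 (−1.03) lie lowest and that for ubl-5 (0.95) lies highest. Where they rank among genes of like abundance was not computed.

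The genes whose log2 CPM followed these patterns most closely over the 6 libraries were sought among 8522 genes averaging 10 CPM or more, and the 6 points fall into the treatment groups, which all such genes share. For hsp-6 they were clu-1, vbh-1 and T25D3.4 (Pearson r of 0.99986, 0.999825 and 0.999698, log2 fold changes −1.199, −0.80 and −0.91). For hsp-60 they were vha-13 (−0.76), ugt-22 (−1.95) and T05H4.11 (−0.49), with r between 0.998574 and 0.999566. For atfs-1 they were the meiotic nuclear envelope gene sun-1 (−0.78), the polo-like kinase gene plk-1 (−1.03) and T04A8.7 (−0.81), with r between 0.999654 and 0.999858. Their fold changes differ widely, since the measure compares shape and not size.

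Of 15 remaining mitochondrial folding and protease genes, 8 (53.3%) were lower and 1 (6.67%) higher, with a median log2 fold change of −0.31. They average 10 CPM or more, 4 of them 100 CPM or more, levels at which 33.0% and 50.2% of all genes were lower. The falls with the smallest p were Y22D7AL.10 (−0.66), the m-AAA protease genes ppgn-1 (−0.50) and spg-7 (−0.60) and the processing peptidase gene mppa-1 (−0.51). The gene that rose was D2030.2, at 93.8 ± 25.6 CPM in FUDR and 55.0 ± 0.371 CPM in OP50 (SD, n = 3 each; 0.77, edgeR adjusted p = 0.00986). Without OP50 replicate 3 the number lower was 5, and without FUDR replicate 1 the number higher was 2.

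Of 14 import genes, 28.6% were lower and 21.4% higher, where 21.04% and 19.96% of all genes were. Of the 14, 10 average between 10 and 100 CPM, a level at which 33.0% of all genes were lower and 16.8% higher. Another 3 average 100 CPM or more, where 50.2% were lower and 9.06% higher. The 4 that fell were the receptor gene tomm-70 (−0.47), the channel gene tomm-40 (−0.41), tin-44 (−0.38) and timm-17B.1 (−0.33), and the 3 that rose were timm-17B.2 (0.68), the receptor gene tomm-22 (0.58) and the small chaperone gene tin-10 (0.41). Of the 2 paralogues of the channel subunit TIM17, timm-17B.1 was at 122.7 ± 11.03 CPM in FUDR and 154 ± 7.01 CPM in OP50, and timm-17B.2 at 12.4 ± 1.81 CPM in FUDR and 7.78 ± 0.204 CPM in OP50. The number of rises was 5 without FUDR replicate 1 and 1 without FUDR replicate 2, FUDR replicate 3, OP50 replicate 1 or OP50 replicate 2. The timm-17B.1 call was lost without FUDR replicate 2, OP50 replicate 2 or OP50 replicate 3 (adjusted p between 0.0556 and 0.0858), and with upper quartile scaling (−0.17), library size alone (−0.092) or the 5 CPM filter (−0.21). That of tomm-22 was lost in 4 fits with a library left out (between 0.0517 and 0.107) and with no filter (0.0914), and that of tin-10 in 5 (between 0.0533 and 0.114), while that of timm-17B.2 held with each library left out.

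Of 14 genes that shape or clear mitochondria, 5 (35.7%) were lower and 3 (21.4%) higher, where 9 of them lie between 10 and 100 CPM. At that level 33.0% of all genes were lower and 16.8% higher. The autophagy receptor gene sqst-1 had 71.4 ± 12.0 CPM in FUDR and 31.1 ± 0.648 CPM in OP50 (SD, n = 3 each), a change of 1.199 ± 0.119 in log2 (SE; adjusted p = 0.000227 by edgeR). The mitophagy receptor gene dct-1 (1.07) and the fission gene fis-1 (0.52) rose too. Lower were the fission GTPase gene drp-1 (−0.61), the inner membrane fusion gene eat-3 (−0.54), the outer membrane fusion gene fzo-1 (−0.32), the mitochondrial transport GTPase gene miro-1 (−0.32) and the mitophagy kinase gene pink-1 (−0.33). The dct-1 call held only without FUDR replicate 3 among the libraries left out (otherwise adjusted p between 0.0764 and 0.103), and it was lost with limma-voom (0.0866) and with no filter (0.119). Without FUDR replicate 2, OP50 replicate 2 or OP50 replicate 3 the number of rises was 1, and without OP50 replicate 3 the number of falls was 3, where fzo-1 had an adjusted p of 0.0608 and pink-1 of 0.0751. The pink-1 call was lost also without FUDR replicate 2 or OP50 replicate 2 (0.0646 and 0.0861) and with the 5 CPM filter (0.0572). Under either library size alone or upper quartile scaling, miro-1, fzo-1 and pink-1 were not called, at between −0.18 and −0.09.

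Of 14 other tested genes that have been reported to respond to mitochondrial stress or to ATFS-1, 5 (35.7%) were higher and 1 (7.14%) lower (median 0.33). Of the 14, 5 average under 10 CPM, 6 between 10 and 100 CPM and 3 at least 100 CPM. Of all genes, 20.5% were higher under 1 CPM and 27.7% between 1 and 10 CPM. The share higher was 16.8% between 10 and 100 CPM and 9.06% from 100 CPM. The lysozyme gene lys-2 had 525 ± 114 CPM in FUDR and 67.6 ± 16.3 CPM in OP50, a change of 2.96 ± 0.221 in log2 (SE, n = 3 each; adjusted p = 0.00011 by edgeR). The C-type lectin genes clec-4 (2.07) and clec-65 (0.66), the cytochrome P450 gene cyp-14A1 (1.003) and the haem trafficking gene hrg-9 (0.75) rose as well, and the mitochondrial J-domain gene dnj-10 (−0.31) fell. These effectors include innate immunity and detoxification genes that other pathways also control, and the import gene timm-23 in the same list was not called (0.16). Without FUDR replicate 2 or OP50 replicate 2 the number of rises was 3, cyp-14A1 among those lost, and the hrg-9 call held only without FUDR replicate 3 (otherwise adjusted p between 0.061 and 0.0863). Without FUDR replicate 1 there were 2 falls, and without OP50 replicate 3 there were 0, dnj-10 then having an adjusted p of 0.0645.

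A separate retrograde pathway runs from DLK-1 through SEK-3 to the p38 kinase PMK-3 and induces the tubulin gene tbb-6 when respiration is impaired. The tbb-6 level was 4.25 ± 1.48 CPM in FUDR and 1.38 ± 0.152 CPM in OP50 (SD, n = 3 each), a change of 1.62 ± 0.269 in log2 (SE; adjusted p = 0.00185 by edgeR), and pmk-3 itself rose (0.42, edgeR adjusted p = 0.00481). Neither sek-3 (0.22) nor dlk-1 (−0.13) was called. Between 1 and 10 CPM, the level of tbb-6, 27.7% of all genes were higher. Between 10 and 100 CPM, the level of the other 3 genes, 16.8% were higher. With library size alone sek-3 was called as well, and dlk-1 was at 0.10.

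Other reported regulators of the mitochondrial response were more often lower than higher. The list does not part those that raise the response from those that restrain it. Of 23 tested, 15 (65.2%) fell and 0 rose (median −0.46), and 0 rose also with DESeq2 and at an unadjusted p under 0.05 with edgeR. Of the 23, 10 average 100 CPM or more, a level at which 50.2% of all genes were lower and 9.06% higher. Another 11 average between 10 and 100 CPM, where 33.0% of all genes were lower and 16.8% higher. The regulators with the smallest p were the bromodomain gene baz-2 (−0.76), arle-14 (−0.67), whose product is a partner of MET-2, the chromatin gene lin-53 (−0.60) and the retromer gene vps-35 (−0.64). With library size alone 10 of the regulators were lower and 2 higher.

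Both gene families with a member among the 9 held more falls than rises. Of 11 tested HSP70 family genes, 6 were lower and 0 higher (also 0 with DESeq2 and at an unadjusted p under 0.05 with edgeR): besides hsp-6 they were the cytosolic hsp-1 (−0.83), the HSP110 gene hsp-110 (−0.83), the endoplasmic reticulum genes hsp-3 (−0.69) and hsp-4 (−0.60), and T14G8.3 (−0.82). The count of falls was 6 with every alternative run. These falls are 54.5% of the 11 genes. Of the 11, 6 average 100 CPM or more, a level at which 50.2% of all genes were lower. Among 7 tested haf transporter genes, haf-4 (−0.91), haf-9 (−0.57), haf-3 (−0.46) and haf-2 (−0.40) fell and haf-7 (0.54) rose, while haf-1 and haf-6 (0.0041) were not called. Of these 7, 57.1% were lower and 14.3% higher, and 5 average between 10 and 100 CPM. At that level 33.0% of all genes were lower and 16.8% higher.

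Of 34 nuclear genes of respiratory chain and ATP synthase subunits, 10 (29.4%) fell and 0 rose (median −0.22; 0 rises with DESeq2 and 1 at an unadjusted p under 0.05 with edgeR), led by atp-2 (−0.69), atp-1 (−0.73), sdha-1 (−0.58) and cox-7C (−0.35). Of the 34, 33 average 100 CPM or more, a level at which 50.2% of all genes were lower. The number of falls was 15 without FUDR replicate 1 and with DESeq2, and 3 without FUDR replicate 2, OP50 replicate 2 or OP50 replicate 3. Of the 12 protein genes of the mitochondrial genome, ND1 (0.59) and WBGene00010965 (0.47) rose and 0 fell (median 0.26; 0 falls also with DESeq2 and unadjusted). The share higher was 16.7%, where 19.96% of all genes were higher. Of the 12, 8 average 100 CPM or more, a level at which 9.06% of all genes were higher and 50.2% lower. Next by p were WBGene00010963 (0.35) and WBGene00000829 (0.32), not called here but called with DESeq2 and other alternatives. The number of rises was 6 without FUDR replicate 1 and 1 without FUDR replicate 2, OP50 replicate 1 or OP50 replicate 2. Such transcripts are seen only as far as poly(A) selection retains them.

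**Figure D4:**
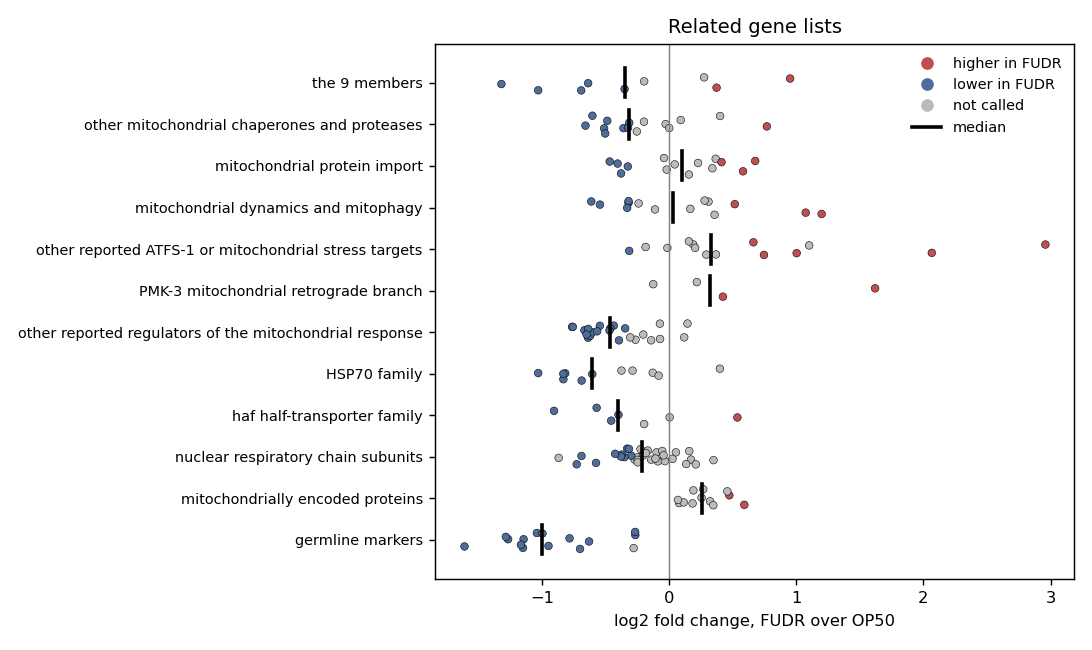
Log2 fold change, FUDR over OP50 (horizontal axis), of every tested gene (points, with vertical scatter for legibility) in the 9 members, 10 related lists and the germline markers; red points were called higher, blue lower, grey not called, and black bars are medians. The medians are −0.31 for the other chaperones and proteases, −0.46 for the regulators and −0.996 for germline markers, against 0.33 for the other reported stress targets.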

How the data were processed

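Poly(A)-selected RNA of whole worms was sequenced. The deposited values are raw counts of reads per gene. STAR, HTSeq and build WBcel235 are named, without versions, in the submitters' processing notes. The sources used here do not give the annotation or strand setting of the counting. The 5 HTSeq summary rows (between 4.55% and 5.33% of counts per library) were left out. All identifiers were found in the Ensembl 115 annotation of WBcel235, which gave positions and exon lengths.

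Genes were tested with edgeR 4.0.16 (R 4.3.3): filterByExpr by group (minimum count 10, minimum total 15), TMM, robust quasi-likelihood F test, Benjamini-Hochberg adjustment over all genes tested, threshold 0.05. The SE is the log2 fold change divided by the square root of F. The test was also run on simulated counts with equally many rises and falls, a setting that cannot check the scaling. Its outcome is not given here. Counts of 3 correspond to between 0.0302 and 0.0489 CPM, for counting error only.

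Groups and replicate numbers came from the sample titles. Replicates of a group differed beyond sampling noise (19.6 or more for chi-square over its degrees of freedom).

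The members, the 9 related lists, the 7 marker lists and the tests were chosen with earlier results of these data known. Mitochondrially encoded genes were taken by chromosome and biotype. Of 224 list entries, 221 were found. For each related list the text names the 4 genes with the smallest p, and all genes where 5 or fewer moved in a direction, which were chosen after their values were seen. A planned look at promoter and protein sequences was not made here. Alternatives were DESeq2 1.42.0, limma-voom (limma 3.58.1), other scalings and filters, a non-robust fit, the replicate block, thinning and leaving out each library.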

Additional observations from a re-analysis of the deposited data

How the results depend on the processing

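The number of members called lower was 5 with DESeq2, limma-voom, RLE and upper quartile scaling, both other filters, the non-robust fit, thinning and each library left out, and 4 with library size alone. The number called higher was 2 or 3 with these, and between 1 and 3 with a library left out. Over all genes, library size alone gave 5814 higher and 1931 lower, against 3397 and 3582 with TMM. The haf-1 value turned to 0.033 and that of dlk-1 to 0.10 with library size alone, and dlk-1 was at 0.024 with upper quartile scaling. Both scalings gave higher fold changes than TMM for all 9 genes. TMM after the 5 CPM filter also gave a higher value for hsp-6 (−0.92, against −1.03). RLE scaling went the other way, lower than TMM for all 9 genes, with hsp-6 at −1.05. Which scaling is right was not tested. Deviations of same-numbered libraries correlated at 0.0551, −0.0166 and 0.0576, so the numbers were not taken to pair them. With the replicate number as a block, 2 members were higher and 5 lower, among 3215 and 3547 genes, so the block changed no call of the 9. With the 5 CPM filter haf-1, tbb-6, cyp-14A1, dct-1 and hrg-9 were not tested.

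Counts in related lists moved with scaling and with the library left out. Under upper quartile scaling and then library size alone, import genes had 6 and 7 rises and 2 and 1 falls, against 3 and 4. Mitochondrial shape and clearance genes had 6 and 7 rises and 2 and 2 falls, against 3 and 5. Respiratory chain genes had 3 and 7 rises and 3 and 3 falls, against 0 and 10, mitochondrially encoded genes 6 and 7 rises, against 2, other stress targets 8 and 8 rises and 0 falls, against 5 and 1, and other chaperones and proteases 2 and 3 rises and 5 and 5 falls, against 1 and 8. The block gave 4 rises among mitochondrially encoded genes, 2 among other chaperones and proteases and 1 among respiratory chain genes. The 5 CPM filter gave 5, 2 and 3, and DESeq2 4 mitochondrially encoded rises.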
